A study of Mus musculus with 2 samples.

Results

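The genes described here are 10 helper T cell cytokine genes: Ifng, Tnf, Lta, Il17a, Il17f, Il4, Il13, Il21, Il10 and Csf2. They were picked by symbol, not by a measured value, and all 10 were found among the 23238 gene symbols of the tables. Naïve CD4+ T cells from the spleens of wild-type female C57BL/6 mice, 7 to 10 weeks old, were activated through CD3 and CD28 and kept for 1 day under conditions that induce regulatory T (iTreg) cells, that is with TGF-β1, IL-2 and antibodies that neutralise IFN-γ and IL-4. The control culture received DMSO and the treated culture 10 μM Tubastatin A (TSA), an inhibitor of the deacetylase HDAC6. TSA here is not trichostatin A. Each condition had 1 library, so no difference below has a replicate check, and neither the number of mice behind a culture nor the share of FOXP3+ cells in it was used here. The question is whether the cytokine genes that mark effector T helper cells differed between the control and TSA-treated cultures.

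T helper cells are told apart by the cytokines they secrete. IFN-γ is the signature of Th1 cells, IL-4 and IL-13 of Th2 cells, IL-17A and IL-17F of Th17 cells, and IL-21 of follicular helper and Th17 cells, while IL-10 is an anti-inflammatory product of regulatory and of some effector T cells. TNF, lymphotoxin α (encoded by Lta) and GM-CSF (encoded by Csf2) are made by several subsets soon after activation. Cytokine genes are typically switched on by NFAT and other factors downstream of the T cell receptor, and many of their mRNAs are short-lived because AU-rich elements in the 3′ untranslated region recruit decay factors. IL-4 and IFN-γ protein feed back on the cells that make them, and both were blocked by antibody in these cultures, which does not remove the mRNAs.

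The stretch of promoter just before the start is shown for the Th17 pair Il17a and Il17f, for Il4, and for the adjacent genes Tnf and Lta, as members with differences described below. The table used holds no entry for Il10. Each line gives 120 bases before the start, 5′ to 3′ on the strand of the gene, from the RefSeq promoter table of GRCm38.p6. Capitals mark TATAAA, the core of a TATA box, and GGAAA, the core of an NFAT site, each searched on both strands (TTTATA and TTTCC on the other). For Il4, which has 2 starts in that table, the one farther upstream was taken.
Il17a (chr1:20730785-20730904, plus strand): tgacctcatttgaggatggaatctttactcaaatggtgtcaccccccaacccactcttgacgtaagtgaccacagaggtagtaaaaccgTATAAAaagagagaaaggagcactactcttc
Il17f (chr1:20784271-20784390, minus strand): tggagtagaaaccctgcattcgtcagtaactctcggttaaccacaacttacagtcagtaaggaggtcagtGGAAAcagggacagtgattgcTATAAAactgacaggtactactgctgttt
Il4 (chr11:53618666-53618785, minus strand): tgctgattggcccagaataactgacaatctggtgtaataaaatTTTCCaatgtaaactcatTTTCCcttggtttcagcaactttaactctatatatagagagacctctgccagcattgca
Tnf (chr17:35202008-35202127, minus strand): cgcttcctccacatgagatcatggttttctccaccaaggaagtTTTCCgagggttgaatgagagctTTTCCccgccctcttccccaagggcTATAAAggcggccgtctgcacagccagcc
Lta (chr17:35205352-35205471, minus strand): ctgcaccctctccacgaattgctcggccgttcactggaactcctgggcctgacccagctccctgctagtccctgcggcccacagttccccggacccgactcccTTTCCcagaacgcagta
TATAAA on the strand of the gene, starting 20 to 40 bases before the start, was found in 5 of the 9 members with an entry in the table (Il17a, Il17f, Ifng, Tnf and Il13), against 1.99% of all 32851 promoters. In Il17a it starts 31 bases before the start, in Il17f and Tnf 29 bases. Il4, Lta, Il21 and Csf2 have no such match in that window. Only the exact letters were searched, so related sequences, such as tatatata in the Il4 line, were not counted. For Csf2 the window lies upstream of the GENCODE start given below. GGAAA was found within 250 bases before the start of 8 of the 9 members, with 5 matches in Il4 and none in Il17a, and in 55.6% of all promoters. These matches are letters in a window, not measured binding.

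The reads came from the ends of transcripts, where AU-rich elements lie. All 10 members had the pentamer ATTTA within the last 300 bases of their longest coding transcript in GENCODE M21, against 40.3% of 21767 protein-coding genes, and 6 had 3 or more, against 4.45%. Il4, among the 6, has a 3′ untranslated region of 104 bases that holds 2 copies, so its window reaches past that region. Csf2 held 9 copies there, Il17a 5 and Il21 4, while Ifng, Il13 and Il10 held 1 each. The nonamer TTATTTATT was present in the last 300 bases of 3 members (Lta, Il21 and Csf2), against 1.95% of all genes, and in Tnf it lay farther from the end, with 5 copies in the 3′ untranslated region. Over the whole 3′ untranslated region Ifng and Il10 held 6 copies of ATTTA each. The densest 30 bases of that region are shown for 5 members, written as DNA with ATTTA in capitals. They range from clustered copies to 1 copy within the 30 bases.
Tnf: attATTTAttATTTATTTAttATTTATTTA
Csf2: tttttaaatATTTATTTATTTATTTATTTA
Il17a: ATTTAtatgagctATTTAtgaatctATTTA
Ifng: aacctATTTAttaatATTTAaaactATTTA
Il10: cctcgtttgtacctctctccgaaatATTTA
mRNA decay was not measured in these libraries.

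The 2 libraries held 10846166 (control) and 10432628 (TSA) reads on genes, recovered from the deposited values. They were made with a 3′ end kit (QuantSeq) that gives about 1 read per captured transcript whatever its length, so levels can be set side by side between genes without dividing by length. Levels are given in CPM, a gene's reads scaled by the library's total of reads on genes, and the floor used here, 3 reads, equals 0.277 CPM in the control and 0.288 in the TSA library. Intervals are exact 95% intervals for counting reads. They cover counting error only, because copies made by PCR could not be separated from independent molecules, and they compare these libraries rather than the conditions. In the same libraries Foxp3, which defines the induced regulatory state, went from 1633 to 965 reads. Fewer cells that make a transcript and less transcript per cell cannot be told apart in RNA from whole cultures.

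The cytokine genes spanned more than 3 orders of magnitude. Lta was by far the most abundant, with 654 CPM in the control and 539 CPM in the TSA library, and ranked 171st and 215th among all genes. Tnf followed with 104 and 144 CPM and Ifng with 12.8 and 15.6 CPM. These 3 genes were separated from each other and from all other members by more than counting error in each library. Below them came Il17a (2.67 and 5.46 CPM), Il17f (1.57 and 4.03 CPM) and Il10 (1.11 and 4.89 CPM). Neighbours within this trio did not differ from each other beyond counting error in either library, nor did Il10 and Il13 in the control. Il13, Il4, Il21 and Csf2 lay at 1.34 CPM or less in each library. Neighbours in the order of these 4 did not differ beyond counting error, except that Csf2 lay below the others in the TSA library. Of all reads on the 10 genes, Lta took 84.2% in the control and 75.3% in the TSA library, Tnf took 13.3% and 20.1%, and the other 8 genes together had 211 and 345 reads.

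**Figure D1:**
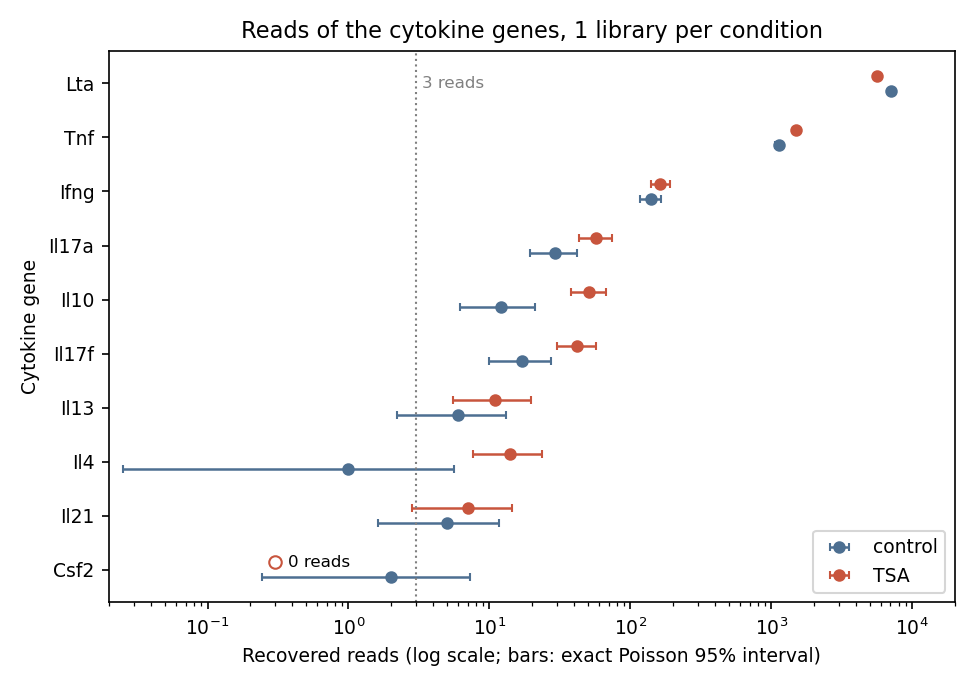
Recovered reads of each cytokine gene (x axis, log scale) in the control and the TSA library, 1 library per condition, with exact Poisson 95% intervals as bars; the dotted line marks 3 reads and the open circle a count of 0. The intervals of Lta, Tnf, Il17a, Il17f, Il10 and Il4 do not overlap between the libraries, and those of Ifng, Il13, Il21 and Csf2 do.

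Both Th17 cytokine genes were higher in the TSA library. Il17a, which encodes the cytokine that drives neutrophil recruitment at barrier tissues, had 29 reads in the control (95% interval 19.4 to 41.7) and 57 in the TSA library (43.2 to 73.9). The deposited log2 values differed by 0.94, just short of 2-fold, and the ratio of normalised counts was 1.95 (1.22 to 3.16). Il17f, its close relative, had 17 reads (9.90 to 27.2) and 42 reads (30.3 to 56.8), a log2 difference of 1.24 and a ratio of 2.45 (1.36 to 4.58). For each gene the TSA value lay above the control value by more than counting error. The number of Il17f reads per Il17a read was 0.586 in the control and 0.737 in the TSA library, and the change in this ratio, 1.26-fold (0.579 to 2.77), did not exceed counting error. With the libraries scaled by total reads, Il17a also passed 2-fold, with a log2 difference of 1.01.

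Il10 showed the largest difference among members with more than 3 reads in each library. It had 12 reads in the control (6.20 to 20.96) and 51 in the TSA library (38.0 to 67.1), a log2 difference of 1.99 and a ratio of 4.21 (2.21 to 8.67). Among genes tested with a mean normalised count of 20 to 100 over both libraries, 4.02% had a log2 difference as high as that of Il10, 12.8% one as high as that of Il17f and 20.1% one as high as that of Il17a. Il10, a cytokine counted with regulatory T cells, and Foxp3 thus differed in opposite directions between the libraries.

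The Th2 genes rested on very few reads. Il4, whose product drives Th2 differentiation and IgE class switching, had 1 read in the control (0.0253 to 5.57) and 14 in the TSA library (7.65 to 23.5), a ratio of 13.9 with an interval of 2.11 to 586. The log2 difference of 2.89 depends on the 1 count added to each value and ranged from 1.66 to 3.67 over the alternatives tried. Il13, which acts with IL-4 in type 2 immunity at mucosal surfaces, had 6 reads (2.20 to 13.1) and 11 reads (5.49 to 19.7), a log2 difference of 0.77 and a ratio of 1.82 (0.615 to 5.98). The 2 values for Il13 overlapped within counting error. Il4 and Il13 reached the minimum of 10 reads through the TSA library alone, so their presence among the genes tested already favours a higher TSA value.

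Il21, a growth and differentiation factor for B cells and for Th17 and follicular helper cells, had 5 reads (1.62 to 11.7) in the control and 7 (2.81 to 14.4) in the TSA library, below the minimum for testing. The ratio of 1.39 had an interval of 0.379 to 5.54, and a difference was not detectable at this depth. Csf2, which encodes the myeloid growth factor GM-CSF, had 2 reads in the control (0.242 to 7.23) and 0 in the TSA library (0 to 3.69). Both values were at or under the floor of 3 reads, so no fold change is given.

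Tnf and Lta, the members with most reads, differed in opposite directions. Tnf, which encodes the inflammatory cytokine TNF, had 1125 reads in the control (1060 to 1193) and 1504 in the TSA library (1429 to 1582), a log2 difference of 0.40 and a ratio of 1.32 (1.23 to 1.43). Lta, which encodes the lymphotoxin α subunit needed for lymphoid organ formation, had 7095 reads (6931 to 7262) and 5622 reads (5476 to 5771), a log2 difference of -0.35 and a ratio of 0.785 (0.758 to 0.813). Rounding of the deposited values leaves an uncertainty of 2.5 reads or less in these numbers. Neither gene came near 2-fold, yet each difference was well beyond counting error, and each kept its direction under all scalings tried, with log2 differences of 0.40 to 0.49 for Tnf and -0.35 to -0.27 for Lta. Ifng, the Th1 cytokine, had 139 reads (117 to 164) and 163 reads (139 to 190). Its log2 difference was 0.21 (0.215 as deposited) and its ratio 1.16 (0.920 to 1.47), within counting error.

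Of the 10 cytokine genes, 8 had at least 10 reads in 1 library and were tested against the 2-fold threshold. Il17f, Il4 and Il10 were called higher by more than 2-fold and no member was called lower, where 11.5% of all 12164 genes tested were called higher and 3.15% lower. The share of genes called higher was strongly tied to the number of reads. It was 52.0% among genes with a mean normalised count under 20, which hold Il4 and Il13, so the call of Il4 is one that most genes of that level share. It was 18.6% from 20 to 100, where Il10 and Il17f were called and Il17a was not, and 1.48% at 100 or more, where Tnf, Lta and Ifng were not called. By the counting interval, 5 members lay wholly above no change (Tnf, Il17a, Il17f, Il4 and Il10), against 28.1% of all genes tested, and Lta lay wholly below it, against 28.0%. The intervals of Ifng and Il13 included no change. The median log2 difference of all genes tested was 0.015. No gene is named for a pattern like that of a member, because 2 libraries give 1 difference per gene.

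**Figure D2:**
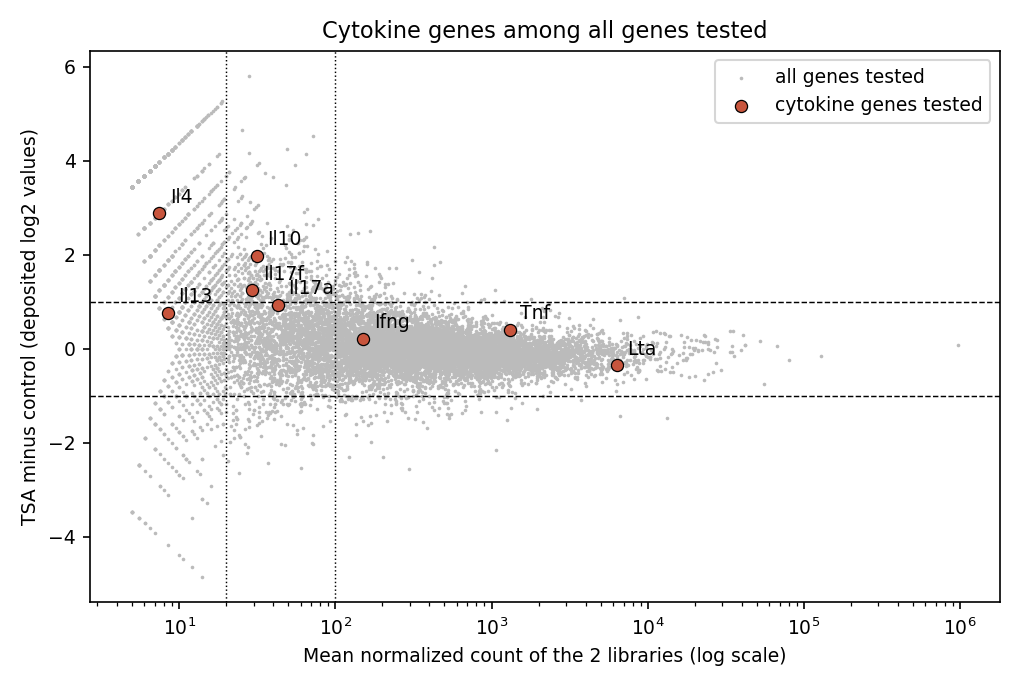
TSA minus control difference of the deposited log2 values (y axis) against the mean normalised count of the 2 libraries (x axis, log scale) for the 12164 genes tested (grey) and the 8 cytokine genes among them (red); dashed lines mark 2-fold and dotted lines mean counts of 20 and 100. Il4, Il10 and Il17f lie above the upper dashed line, in the part of the plot where many other genes do too.

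Most of the members lie in clusters of cytokine genes, and genes of the same cluster did not always differ in the same direction. Positions are from GENCODE M21 on GRCm38, the assembly that the submitters' processing notes call mm10, and all 10 members are protein-coding. Distances are between GENCODE starts. For Il17f, Csf2 and, by a few bases, Il4 these differ from the RefSeq starts used for the promoters above. Tnf (chr17:35199381-35202007) and Lta (chr17:35203165-35205351) are neighbours on the minus strand, and Ltb, which encodes the membrane partner of lymphotoxin α, starts 10.9 kb from Lta. Ltb went from 982 to 687 reads, a ratio of 0.693 (0.627 to 0.764), in the direction of Lta and against Tnf. There were 0.159 Tnf reads per Lta read in the control and 0.267 in the TSA library, a change of 1.69-fold (1.55 to 1.84) that no scaling between libraries can alter. Tnf reads per Ltb read went from 1.15 to 2.19, a change of 1.91-fold (1.68 to 2.17), whereas Ltb per Lta changed by 0.883-fold (0.795 to 0.980). Of the 3 ratios, that between the lymphotoxin subunits changed least, and the starts of Tnf and Lta lie 3.3 kb apart.

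Il10 (chr1:131019845-131024974) has the cytokine gene Il24 132.4 kb away. Il24 had 54 reads in the control and 26 in the TSA library, a ratio of 0.477 (0.287 to 0.775), so that Il10 reads per Il24 read went from 0.222 to 1.96, a change of 8.83-fold (3.80 to 21.1). The other cytokine genes of that cluster, Il19 and Il20, had 0 reads in both libraries. Csf2 (chr11:54247271-54249667) has Il3 at 17.6 kb. Il3, a growth factor for mast cells and myeloid progenitors, had 29 reads in the control and 3 in the TSA library, a ratio of 0.102 (0.0200 to 0.331). Of the type 2 cluster, Il4 (chr11:53602982-53618669) and Il13 (chr11:53631324-53634702) lie beside Il5, which had 0 and 4 reads, and beside the DNA repair gene Rad50, whose introns hold a control region of this cluster and which had 1876 and 1404 reads, a ratio of 0.741 (0.691 to 0.795). Il17a (chr1:20730905-20734496) and Il17f (chr1:20777146-20790617) were both higher. Mcm3, a replication gene 29.7 kb from the GENCODE start of Il17f, had a ratio of 0.870 (0.840 to 0.901). Il2, 106.7 kb from Il21 (chr3:37222759-37232636), had 198 and 160 reads, a ratio of 0.800 (0.646 to 0.991) whose interval included no change with scaling by total reads. Ifng lies at chr10:118441046-118445892.

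Taking the nearest 3 protein-coding genes on each side of every member gave 42 neighbours that are not members, of which 26 were tested. Of these, 4 were called higher and 3 lower by more than 2-fold, with a median log2 difference of 0.068, where 11.5% of all genes tested were called higher and 3.15% lower. Those higher were Pkhd1 near the Il17 pair (0 and 18 reads), Atp6v1g2 near Tnf (8 and 27), and Pdlim4 (41 and 104) and P4ha2 (6 and 29) near Csf2, of which Pkhd1, Atp6v1g2 and P4ha2 reached 10 reads in the TSA library alone. Il3, which reached 10 reads in the control library alone, and Il24 were among those lower. Annotated genes on the opposite strand overlap Il21 (Gm12534) and Csf2 (Gm12223). Neither has a row in the tables, and whether the counting used strand is not given in the sources used here.

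**Figure D3:**
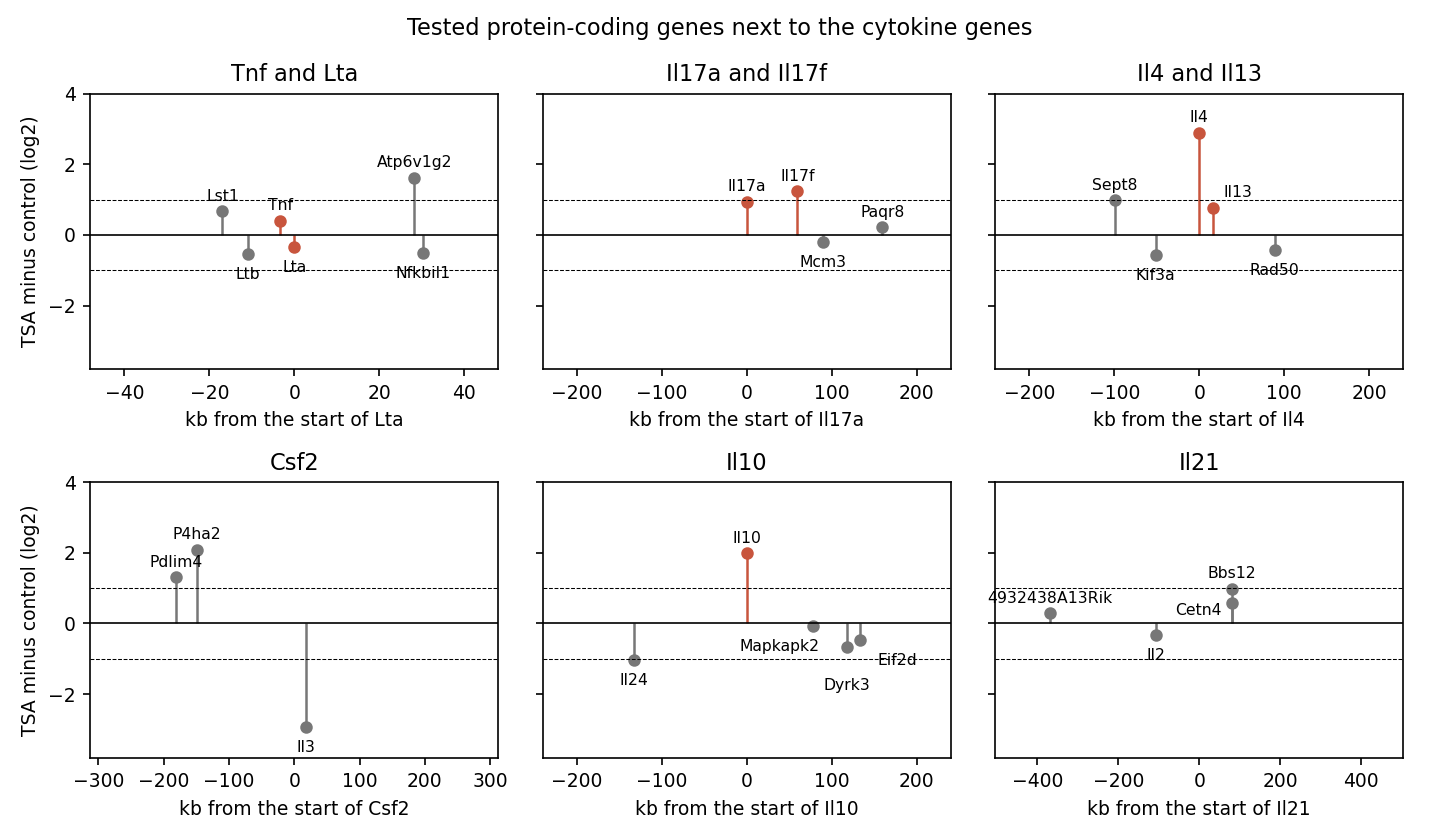
TSA minus control difference of the deposited log2 values (y axis) against the distance of each gene's start from the start of the named cytokine gene (x axis, kb) for members (red) and other protein-coding genes (grey) among the nearest 3 on each side, shown where tested and with reads in both libraries; dashed lines mark 2-fold. Tnf lies above 0 and Lta and Ltb below, and Il10 lies above and Il24 below.

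Beyond the members, 31 other ligand genes that T cells can express were examined, of which 23 were tested. Here 2 were called higher and 3 lower by more than 2-fold, and by the counting interval 6 were higher and 10 lower, with a median log2 difference of -0.13. Among all genes tested 11.5% were called higher and 3.15% lower by 2-fold, and 28.1% were higher and 28.0% lower by the interval. Those called higher were Fasl (17 and 38 reads, ratio 2.21, 1.22 to 4.18), which encodes a ligand that kills target cells, and Spp1 (4 and 19 reads, ratio 4.70, 1.56 to 19.0), which encodes osteopontin. With a pseudocount of 5, Fasl was no longer called. Spp1 reached 10 reads in the TSA library alone and has a mean normalised count under 20, where 52.0% of genes were called higher. Those called lower were Il3 and Il24, described above, and Tnfsf11 (195 and 92 reads, ratio 0.467, 0.361 to 0.602), which encodes RANKL, the osteoclast differentiation factor. Il3 reached 10 reads in the control library alone. With at least 10 reads in both libraries 2 ligands were called lower in place of 3. Il24 lay just past 2-fold and was no longer called with scaling by total reads, with or without the ribosomal RNA precursor Rn45s, or by the upper quartile, or with a pseudocount of 5. The ligand genes with most reads had small differences: Mif had a ratio of 0.859 (0.835 to 0.883) and the chemokine gene Xcl1 one of 0.849 (0.795 to 0.907), while Ccl4, another chemokine gene, had one of 0.915 (0.852 to 0.982), whose interval included no change with scaling by total reads. Il22 had 0 reads in each library.

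The receptors of the member cytokines were present for most ligands. Of 17 receptor genes, 13 were tested, of which 7 had counting intervals above no change and 6 below it, against 28.1% and 28.0% of all genes tested. The 6 became 3 with scaling by total reads and 2 with total reads without Rn45s, and the 7 became 4 with at least 10 reads in both libraries. The 3 called higher by more than 2-fold all had few reads in the control: Il13ra1 (2 and 18 reads, ratio 8.91, 2.13 to 79.2), Csf2rb, the shared β chain for GM-CSF, IL-3 and IL-5 (3 and 21 reads, ratio 6.93, 2.07 to 36.3), and Il10ra, the ligand-binding chain for IL-10 (9 and 27 reads, ratio 2.97, 1.36 to 7.18). All 3 had a mean normalised count under 20, where 52.0% of genes were called higher, and reached 10 reads in the TSA library alone. Il10rb, the other chain of the IL-10 receptor, had 172 and 131 reads (ratio 0.754, 0.596 to 0.952), a gene named after its values were seen, and its interval included no change with total reads without Rn45s. The 3 receptor genes with most reads were lower, with ratios of 0.606 (0.567 to 0.647) for Tnfrsf1b, a TNF receptor found on regulatory T cells, 0.939 (0.901 to 0.980) for Il2rg, the common γ chain, and 0.901 (0.840 to 0.966) for Il4ra. With scaling by total reads the intervals of Il2rg and Il4ra included no change. Il17ra, a receptor chain for the IL-17 cytokines, had 694 and 873 reads (ratio 1.246, 1.126 to 1.378), and Ifngr1, Ifngr2 and Tnfrsf1a also had intervals above no change. These 4 were named after their values were seen. The median log2 difference of the receptors was 0.31 (0.315), but it was -0.12 when at least 10 reads were required in both libraries, since the receptors called higher then drop out.

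**Figure D4:**
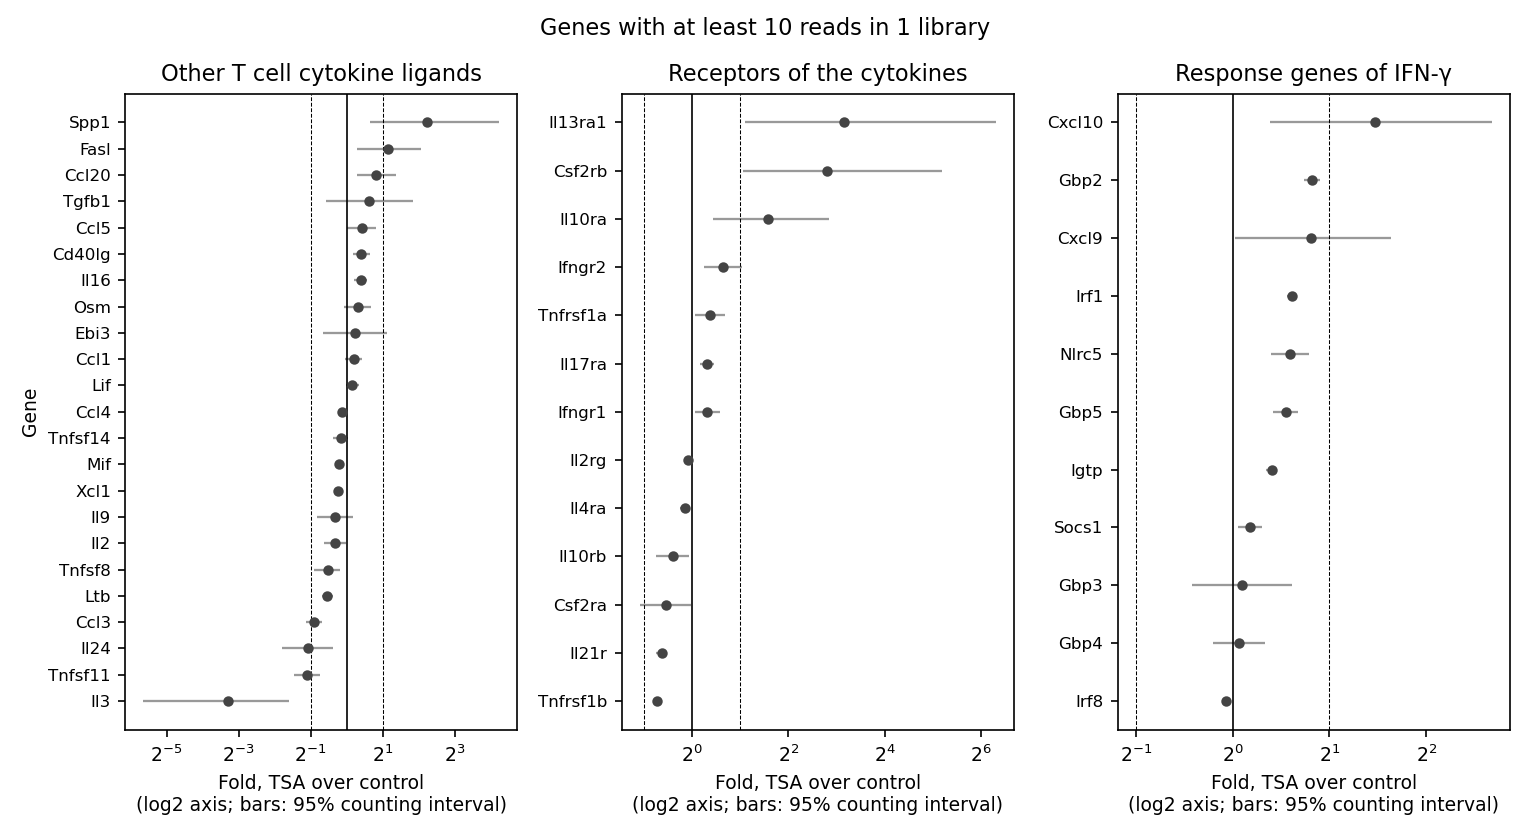
Ratio of normalised counts, TSA over control (x axis, log2 scale), with exact 95% counting intervals for the tested genes among other T cell cytokine ligands (left), receptors of the member cytokines (middle) and response genes of IFN-γ (right); dashed lines mark 2-fold and the solid line no change. Of the IFN-γ response genes, 8 have intervals above 1, and of the receptor genes 7 have intervals above 1 and 6 below, which became 3 below with scaling by total reads.

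Of 20 transcription factor genes that act on these cytokine loci, 19 were tested and none was called by the 2-fold threshold. By the counting interval 7 were higher and 5 lower, against 28.1% and 28.0% of all genes tested, with a median log2 difference of 0.093. Those with most reads were Irf4, a factor needed for Th2 and Th17 cells (6675 and 10749 reads, ratio 1.60, 1.55 to 1.64), Stat3, which relays IL-6 and IL-21 signals (ratio 1.05, 1.01 to 1.08), and Runx3, a partner of T-bet at Ifng (ratio 1.12, 1.06 to 1.18).

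Of 11 tested response genes of IFN-γ, 8 were higher by the counting interval and 1 was lower, where 28.1% of all genes tested were higher and 28.0% lower. The median log2 difference of these genes was 0.55, against 0.015 for all genes tested. Irf1 had 5208 and 8028 reads (ratio 1.53, 1.47 to 1.58) and the immunity-related GTPase gene Igtp a ratio of 1.33 (1.27 to 1.38). Cxcl10, a chemokine gene, was the only one called by 2-fold (10 and 28 reads, ratio 2.77, 1.31 to 6.40). Irf8, the gene of the list with most reads, had a ratio of 0.951 (0.937 to 0.965), and with scaling by total reads its interval included no change. These genes also respond to type I interferon. Of 8 genes that respond to IL-10, IL-4 or IL-21, none was called by 2-fold, 3 were higher and 2 lower by the interval, again against 28.1% and 28.0%, with a median log2 difference of 0.17. With total reads 5 were higher and 1 lower, and by the upper quartile 5 were higher. The best covered were Cish (ratio 1.24, 1.19 to 1.29), Socs2 (ratio 0.525, 0.494 to 0.558) and Il4ra.

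Markers of αβ CD4 T cells were abundant in both libraries, with 1495 CPM in the control and 1589 in the TSA library over the 7 of 8 markers that have a row, and none of them was at 0. Markers of other cells had fewer reads in sum. The 9 CD8 and NK cell markers summed to 94.0 and 112.7 CPM, with 3 of the 9 at 0 in each library. Most of it came from Nkg7 (889 and 1043 reads), which activated T cells also express. Cd8b1 (65 and 77 reads) and Klrd1 (47 and 40) followed, at a level near that of Il17a (29 and 57). The 7 matched markers of γδ and innate-like T cells included Il23r and Cd163l1, both at 0 in each library. The 6 matched B cell markers summed to 125 and 100 reads, the 9 myeloid markers to 67 and 50, and the 7 markers of mast cells, basophils and ILC2 to 49 and 44. For the B cell list 3 markers were at 0 in the control and 1 in the TSA library, for the myeloid list 1 and 3, and for the last list 3 and 4. The B cell sum was mostly Cd74 (113 and 85 reads), and the markers within each of these lists did not all differ in the same direction. The part of other cells in the cytokine differences was not tested.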

How the data were processed

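RNA from 1 control and 1 TSA-treated iTreg culture was sequenced as single-end 75-nt QuantSeq 3′ libraries. The submitters' processing notes name mm10, Bowtie2 and bedtools, and the paper names ExDEGA. Versions and the normalization are not given in the sources used here. The values deposited by the authors are on a log2 scale, log2 of a normalised count plus 1, for 23282 rows. This was found from the values: 2 to the power of a value, minus 1, fell on multiples of 1.005 (control) and 0.995 (TSA), and 99.95% (control) and 99.94% (TSA) of genes with 1 to 300 reads lay within 0.1 of a whole read. Rows without a read, listed at up to 0.016 in the control, were read as 0.

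Differences are the deposited TSA value minus the control value. Ratios of normalised counts carry no added count and have exact Clopper-Pearson 95% intervals. Ratios of genes within a library have exact conditional intervals for the odds ratio. Genes with at least 10 reads in 1 library were tested against 2-fold. With 1 library per condition there was no test between conditions. The steps were tested on simulated data. Python 3.11.15, numpy 2.4.6, scipy 1.17.1 and pandas 2.3.3 were used.

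All members were named. From each list of ligands, receptors, regulators and response genes the 3 genes with most reads, those past 2-fold and those of a member's cytokine locus were named. The marker lists were used as sums, and not all of their genes of these kinds were named. Other genes, among them the remaining neighbours and marker genes, were named after their values were seen. The members and lists were chosen with earlier results of these data known. Values of 2 genes among the neighbours and markers are not reported here.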

Additional observations from a re-analysis of the deposited data

How the results depend on the processing

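No paired analysis was possible because each condition had a single library, and for the same reason no library was left out. Other scalings shifted every log2 difference by 0.085 or less. Over 63 alternative values for the members, all 63 kept their sign and 61 stayed within the counting interval. The others were those of Lta, -0.28 with total reads and -0.27 (-0.265) with total reads without Rn45s, the ribosomal RNA precursor. With a 1.5-fold threshold 5 members were higher in place of 3, 2 receptors lower in place of 0, 1 regulator higher and 1 lower in place of 0, 5 IFN-γ response genes higher in place of 1 and 1 IL-10, IL-4 or IL-21 response gene lower in place of 0. Without a filter on reads 1 member was lower (Csf2, with 2 and 0 reads), 2 receptors lower, 1 regulator higher and 2 IFN-γ response genes higher, and the receptors' median was -0.090. With at least 10 reads in both libraries, or at least 20 over both, 2 members were higher in place of 3 and 4 by the interval in place of 5, since Il4 was no longer tested. With at least 10 reads in both libraries 1 other ligand was higher in place of 2, 0 receptors were higher by 2-fold and 4 by the interval, and the receptors' median was -0.12. With a pseudocount of 5, 1 other ligand was higher, since Fasl was no longer called. With total reads 3 receptors in place of 6 were lower by the interval (2 without Rn45s), 0 IFN-γ response genes in place of 1 were lower, 5 IL-10, IL-4 or IL-21 response genes in place of 3 were higher (5 also by the upper quartile) and 1 in place of 2 was lower. With a 99% interval 3 regulators in place of 5 were lower. Among all genes, 2817 were higher and 1200 lower without a filter, 524 and 223 with at least 10 reads in both libraries, and 2279 and 1014 at 1.5-fold. Depth limits Il4, Il13, Il21 and Csf2.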
